A study of Mus musculus with 3 samples.

Results

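Dividing nuclei were described in single-nucleus RNA sequencing of frozen mouse liver, in 3 libraries, each from 1 mouse. A nucleus was taken as dividing when it held transcripts of at least 3 of the 9 cell cycle genes Mki67, Top2a, Cenpf, Kif11, Tpx2, Neil3, Racgap1, Stil and Ect2, and when these made up at least 0.05% of its unique molecular identifiers (UMIs, each standing for 1 captured RNA molecule). Barcodes with 200 to 5000 genes and at most 5% mitochondrial UMIs were kept, and 123 of 28336 kept nuclei were dividing by this rule. The ND library came from 1 normal mouse, and the STZ-HFHC libraries came from 2 mice given streptozocin (STZ, 0.2 mg) at 3 days of age and, from 4 weeks, HFHC chow rich in fat and cholesterol, a model of liver fibrosis in metabolic dysfunction-associated steatohepatitis (MASH). All mice were male C57BL/6 J. Streptozocin destroys insulin-producing cells, so both agents separate the groups together, and the ages of these mice at collection were not given in the sources used here. The codes in the library titles differ between the ND mouse and the STZ-HFHC mice and their meaning is not stated, so condition, mouse and any difference in preparation cannot be told apart. The comparison asks how many nuclei carried division transcripts in the fibrotic livers, and which cell types they belonged to.

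A dividing cell first copies its DNA in S phase and then separates the copies in mitosis. Genes of DNA replication are transcribed from late G1 into S phase, while genes for chromosome condensation, the spindle and the cleavage furrow are transcribed mainly in S phase, G2 and mitosis, in large part under the E2F factors and the DREAM and MuvB complexes. In the healthy adult liver few cells divide at any time, and hepatocytes, macrophages, endothelial cells and stellate cells all can divide after injury.

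The files held 9424 barcodes with 77617520 UMIs in the ND library, 9923 barcodes with 73942732 UMIs in STZ-HFHC 1 and 11642 barcodes with 72934861 UMIs in STZ-HFHC 2. After the limits on genes and mitochondrial UMIs, 8494, 8921 and 10921 nuclei remained. Between 29 and 32 barcode sequences were shared by each pair of libraries, and no barcode was dividing in both libraries of a pair.

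Dividing nuclei made up 0.130% of the ND nuclei (11 of 8494, 95% exact Clopper-Pearson interval 0.0647% to 0.232%). They made up 0.583% of the nuclei of STZ-HFHC 1 (52 of 8921, interval 0.436% to 0.764%). In STZ-HFHC 2 the share was 0.549% (60 of 10921, interval 0.420% to 0.707%). Both STZ-HFHC shares lay above the ND share, 4.50 and 4.24 times, and their mean was 0.566% ± 0.0237 (SD, n = 2). The intervals of the ND mouse and of either STZ-HFHC mouse did not overlap, but they cover counting error only. With 1 ND mouse there is no spread between ND animals and no test between the groups. The rule counts genes with a transcript and so depends on depth: the median number of UMIs was 3421 in dividing and 4069 in other ND nuclei, 4227.5 and 3011 in STZ-HFHC 1, and 3805.5 and 4029 in STZ-HFHC 2. When each nucleus with at least 2000 UMIs was thinned to 2000, the shares were 0.0751% of 6656 ND nuclei, 0.423% of 5674 nuclei of STZ-HFHC 1 and 0.321% of 7782 nuclei of STZ-HFHC 2. This left out 1838, 3247 and 3139 shallower nuclei. After thinning to 1000 UMIs the ND share was 0.0506% (interval 0.0138% to 0.129%). The STZ-HFHC shares were then 0.184% (0.103% to 0.304%) and 0.127% (0.0674% to 0.216%), and the ND interval overlapped both. The order of the ND mouse below both STZ-HFHC mice was the same with and without thinning. Doublet scores (Scrublet) in the top 8% of their library were found in 0 of 11, 7 of 52 (13.5%) and 6 of 60 (10%) dividing nuclei, and in 8.38%, 9.08% and 8.43% of all nuclei. Without such nuclei the STZ-HFHC mean share was 3.87 times the ND share.

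**Figure D1:**
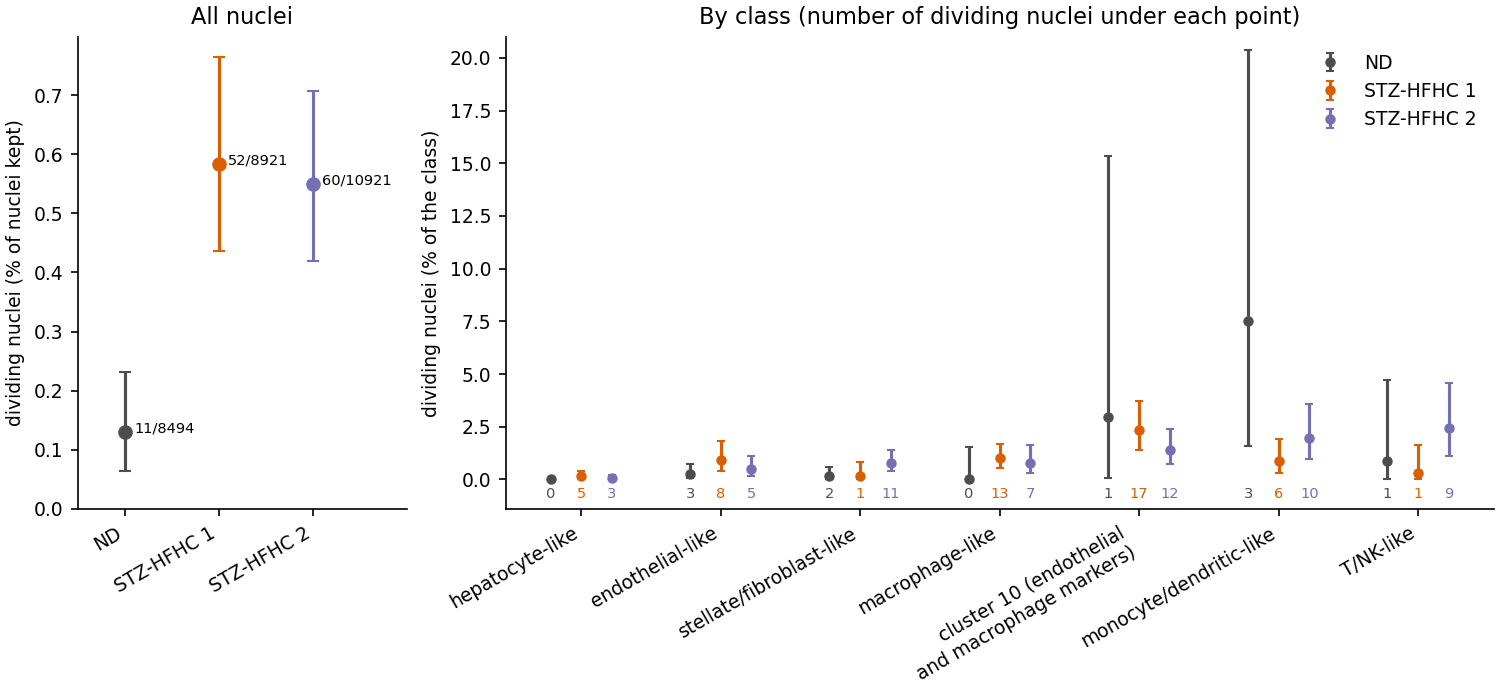
Left, dividing nuclei as a percentage of nuclei kept in each library. Right, dividing nuclei as a percentage of each class in each library, with their number printed below each point. Bars are 95% Clopper-Pearson intervals, which cover counting error only, and the ND points of the small classes have wide intervals (cluster 10, 1 of 34 nuclei, and monocyte/dendritic-like, 3 of 40).

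The 9 genes of the rule act at several steps of division, and the nuclei were chosen by these transcripts, so that their levels below are descriptions. Mki67 (chr7:135689784-135716361 in GRCm38, as are all coordinates here) encodes Ki-67, which coats mitotic chromosomes. Top2a (chr11:98992943-99024189) encodes topoisomerase II alpha, which untangles replicated DNA. Cenpf (chr1:189640606-189688086) encodes a kinetochore protein. Kif11 (chr19:37376403-37421859) encodes the kinesin that pushes spindle poles apart, and Tpx2 (chr2:152847964-152895321) encodes a spindle assembly factor that activates Aurora A kinase. Neil3 (chr8:53586867-53639065) encodes a DNA glycosylase of S phase and Stil (chr4:115000159-115043196) a protein of centriole duplication. Racgap1 (chr15:99620496-99651656) and Ect2 (chr3:27097222-27153878) encode the centralspindlin subunit and the guanine nucleotide exchange factor that together start the cleavage furrow.

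Top2a gave the most transcripts of the 9 genes in every library, with 23 UMIs in the 11 ND dividing nuclei, 74 UMIs in the 52 dividing nuclei of STZ-HFHC 1 and 89 UMIs in the 60 of STZ-HFHC 2. Its level was 456, 284 and 315 CPM (a share of all UMIs of the nuclei, 10000 CPM being 1%) in the dividing nuclei of the 3 libraries, and 0.773, 2.00 and 2.46 in the other nuclei. Mki67 was at 218, 180 and 212 CPM in dividing nuclei. For Cenpf the values were 39.7, 169 and 120, resting on 2 UMIs in ND. CPM do not correct for gene length, and the RNA of nuclei is largely unspliced, so these levels order the same gene between libraries, not one gene against another. Each of the 9 genes was found in 43 to 84 of the 123 dividing nuclei, Top2a in the most and Cenpf in the fewest. No gene of the rule was found in all of them.

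**Figure D2:**
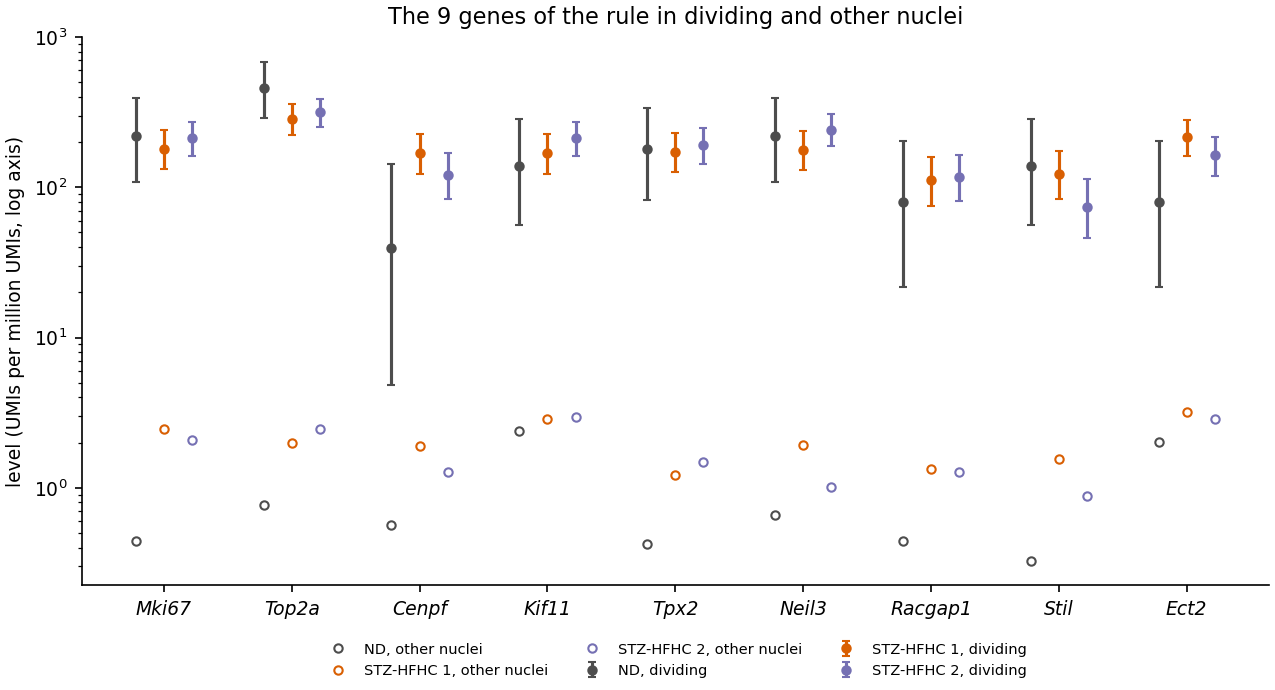
Levels of the 9 genes of the rule in CPM on a log axis. Filled points are dividing nuclei with 95% exact Poisson intervals (counting error only), open points the other kept nuclei of the same library, and colours are the 3 libraries. Every filled point lies above the open point of its gene and library, which the rule itself brings about.

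The promoters of 4 of these genes are shown because the genes define the dividing nuclei. The rule itself requires several of them in 1 nucleus, so their being found together is no result. The stretch is from 150 bases before to 20 bases after the RefSeq start of transcription in GRCm38.p6, 5′ to 3′ on the gene's own strand. It covers chr7:135716360-135716529 on the minus strand for Mki67, chr11:99024170-99024339 on the minus strand for Top2a, chr1:189688067-189688236 on the minus strand for Cenpf and chr19:37376232-37376401 on the plus strand for Kif11. Capitals mark the cell cycle homology region, searched with the letters TTTGAA and with the letters TTCGAA, and the CCAAT box bound by NF-Y, each on both strands. Tpx2 is not shown.
Mki67: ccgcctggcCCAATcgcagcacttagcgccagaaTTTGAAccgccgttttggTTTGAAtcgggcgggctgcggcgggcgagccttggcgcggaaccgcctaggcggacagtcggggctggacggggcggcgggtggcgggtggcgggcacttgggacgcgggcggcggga
Top2a: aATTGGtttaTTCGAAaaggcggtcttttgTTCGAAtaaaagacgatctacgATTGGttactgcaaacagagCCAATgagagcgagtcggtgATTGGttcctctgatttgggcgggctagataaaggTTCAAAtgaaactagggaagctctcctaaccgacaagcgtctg
Cenpf: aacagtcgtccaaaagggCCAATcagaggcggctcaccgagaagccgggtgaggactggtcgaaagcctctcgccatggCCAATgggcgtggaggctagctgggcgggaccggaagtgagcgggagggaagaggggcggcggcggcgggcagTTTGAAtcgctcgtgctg
Kif11: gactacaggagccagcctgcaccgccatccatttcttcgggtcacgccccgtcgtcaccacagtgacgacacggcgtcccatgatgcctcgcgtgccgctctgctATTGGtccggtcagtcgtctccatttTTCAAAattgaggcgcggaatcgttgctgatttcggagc
In the full 300 bases of the reference window, from 250 bases before to 50 after the start, 7 of the 8 rule genes with an entry held a cell cycle homology letter run (87.5%), against 19.2% of all 32851 promoters. CCAAT was in 7 of the 8 (87.5%) and in 37.4% of all promoters. A typical E2F site (the letters TTCCCGC, the letters TTCGCGC, the letters TTGCCGC or the letters TTGGCGC, on both strands) was in 3 of the 8 and in 9.57% of all promoters. Top2a held 4 cell cycle homology runs and 6 CCAAT boxes in that window, while Stil held none of the former. The genes were chosen as known cell cycle genes, so these letters describe them and test nothing. Of the other cycle genes listed below, 124 had an entry, and 54 of them (43.5%) held a cell cycle homology run.

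The rule has sharp limits, and nuclei lay on both sides of them. Of the 123 dividing nuclei, 45 had exactly 3 of the 9 genes, and in these the genes made up 0.0516% to 0.391% of UMIs. A further 22 nuclei had at least 3 of the genes but a share of 0.0312% to 0.0493%, under the limit. These were deep nuclei, with a median of 12563.5, 11886.5 and 10005.5 UMIs in the 3 libraries. Another 54 nuclei had 2 of the genes at 0.0517% to 0.339% of UMIs, 2 of them in ND and 27 and 25 in the STZ-HFHC mice. At the other end, 52 of the 123 had 5 or more of the genes, 4 of them in ND and 25 and 23 in the STZ-HFHC mice. The richest nucleus, in a stellate/fibroblast-like cluster of STZ-HFHC 2, held all 9 genes with 60 UMIs. The next, in an endothelial-like cluster of STZ-HFHC 1, held all 9 with 38 UMIs.

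All nuclei were clustered with the cycle genes left out, so that these genes did not form the clusters, and clusters were named from marker lists. Dividing nuclei were found in 11 of the resulting classes. They fell into cluster 10, which carried endothelial and macrophage markers together (30 nuclei), and into macrophage-like (20), monocyte/dendritic-like (19), endothelial-like (16), stellate/fibroblast-like (14), T/NK-like (11) and hepatocyte-like (8) classes. The remaining 5 were 2 mesothelial-like nuclei and 1 each of the B cell-like, cholangiocyte-like and plasmacytoid dendritic-like classes. Clusters left unnamed, which were led by mitochondrial or interferon-stimulated genes, held 0 of 2565 nuclei (upper limits of 0.324%, 0.297% and 0.475% in ND, STZ-HFHC 1 and STZ-HFHC 2).

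Outside the hepatocyte-like and unnamed clusters the share of dividing nuclei was 0.360% in ND (11 of 3053), 0.952% in STZ-HFHC 1 (47 of 4937) and 1.02% in STZ-HFHC 2 (57 of 5588). The classes were present in different proportions: hepatocyte-like nuclei made up 53.2% of the ND nuclei and 33.3% and 43.1% of the STZ-HFHC nuclei. Cluster 10 and the monocyte/dendritic-like cluster held 0.400% and 0.471% of ND nuclei, but 8.13% and 7.63% in STZ-HFHC 1 and 7.97% and 4.65% in STZ-HFHC 2. When the share of each class was kept and the class proportions were set to those of the ND mouse, the dividing share became 0.292% in STZ-HFHC 1 and 0.297% in STZ-HFHC 2, against the ND 0.130%. Fewer nuclei of a class and a different recovery of its nuclei cannot be told apart in these libraries. Different clusters held most of some classes in the 2 conditions: endothelial-like nuclei lay in cluster 4 in ND and in cluster 9 in STZ-HFHC, stellate/fibroblast-like nuclei in clusters 6 and 15, macrophage-like nuclei in clusters 7 and 17, and hepatocyte-like nuclei in clusters 2, 5 and 13 in ND and in 21, 22 and 23 in STZ-HFHC.

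**Figure D3:**
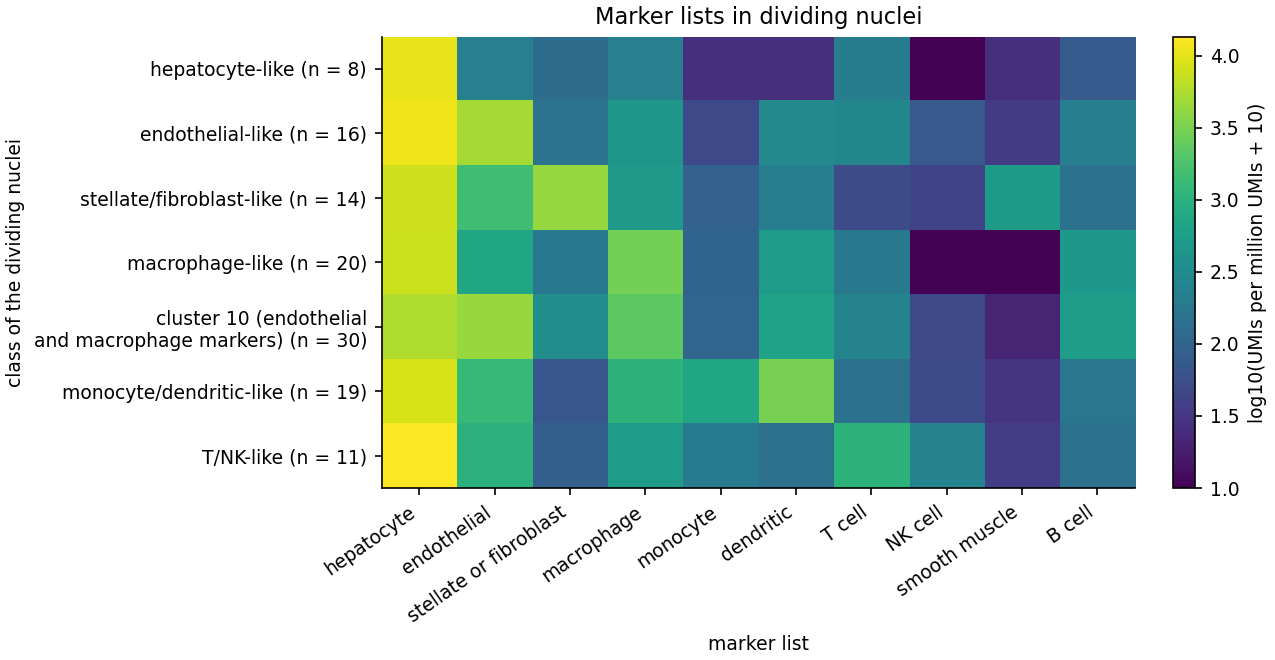
Summed UMIs of each marker list (columns) in CPM over the dividing nuclei of each class (rows), over all libraries, as log10 with 10 added. Among the 7 classes drawn, the endothelial, stellate, macrophage, dendritic and T cell lists are brightest in the rows named for them, and the hepatocyte list is bright in every row.

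Each list of markers was read against the hepatocyte RNA found in nearly all dividing nuclei. Hepatocyte markers such as Cps1, the entry enzyme of the urea cycle, and Alb, the albumin of plasma, were found far beyond hepatocytes. The hepatocyte list summed to 10776 CPM in dividing hepatocyte-like nuclei and to 13515 in dividing T/NK-like nuclei. In dividing nuclei of cluster 10 it summed to 5800. In the dividing hepatocyte-like nuclei of STZ-HFHC 1 the list was at 12631 CPM against 15409 in the other nuclei of the class, and in STZ-HFHC 2 at 6597 against 16340, with Cps1 at 1552 against 10213. The latter was below the 11468 CPM of the dividing endothelial-like nuclei of that mouse. Of the 123 dividing nuclei, 122 held at least 2 different hepatocyte markers. The hepatocyte list therefore did not set these classes apart by itself, and hepatocyte-like clusters were named from hepatocyte and zonation markers together, against the clusters already named for another class. The endothelial list summed to 222 CPM in dividing hepatocyte-like nuclei and to 5088 in dividing endothelial-like nuclei.

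No dividing nucleus was found among 4516 ND hepatocyte-like nuclei, which allows a share of up to 0.0664% by 3 counts of the total and up to 0.0817% by the Clopper-Pearson interval. In STZ-HFHC 1 there were 5 among 2975 (0.168%, interval 0.0546% to 0.392%) and in STZ-HFHC 2 there were 3 among 4702 (0.0638%, interval 0.0132% to 0.186%). Both ND upper limits lay above the STZ-HFHC 2 value, so a difference between these 2 mice was not detectable at this depth. The ND hepatocyte-like nuclei were also shallower, with a median of 4093.5 UMIs against 7887 and 6543. After thinning to 2000 UMIs there were 0 of 3902 in ND (interval up to 0.0945%). The STZ-HFHC mice then had 2 of 2873 (0.0696%) and 2 of 4570 (0.0438%), so a difference from ND was not detectable for either mouse at equal depth. In hepatocyte-like nuclei outside the rule the 9 genes summed to 7.32, 11.3 and 10.8 CPM in ND, STZ-HFHC 1 and STZ-HFHC 2. At least 1 of the genes was found in 3.34%, 8.42% and 7.47% of these deep nuclei, against 4.12%, 6.40% and 6.04% of the other endothelial-like nuclei. The 8 dividing hepatocyte-like nuclei held 9 to 27 UMIs of the 9 genes each, which the rule used and which follow depth. As a share of UMIs their median was 0.249%, against 0.267% in dividing monocyte/dendritic-like nuclei. In the other larger classes the median lay lower, from 0.0862% in cluster 10 to 0.195% in macrophage-like nuclei.

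The dividing hepatocyte-like nuclei of the 2 STZ-HFHC mice differed in their zonation markers, with a high pericentral sum in STZ-HFHC 2 and a low one in STZ-HFHC 1. Hepatocytes near the central vein express glutamine synthetase (Glul) and the glutamate transporter Slc1a2, and those near the portal tract express genes of gluconeogenesis and the urea cycle such as Pck1 and Ass1. All 3 nuclei of STZ-HFHC 2 lay in cluster 23, which was led by pericentral genes. They held 21 UMIs of Glul and 53 UMIs of Slc1a2, and the pericentral list summed to 5322 CPM (exact Poisson interval 4311 to 6499) against 1253 in the other hepatocyte-like nuclei of that mouse. Lgr5 and Gulo were also higher, at 444 against 74.2 CPM and 333 against 46.2, while Cyp2e1 was at 333 against 319, Oat at 0 against 128, and Cyp1a2 and Rgn gave 1 UMI each. The periportal list summed to 1109 against 4014. All 5 nuclei of STZ-HFHC 1 lay in cluster 22. There the pericentral list summed to 394 CPM (225 to 640) against 1430, and the periportal list to 4235 (3626 to 4917) against 3344. The periportal sum of STZ-HFHC 1 rested on Pck1, the gluconeogenic enzyme PEPCK, with 113 of 172 UMIs (2782 against 1557 CPM), and on Hsd17b13, a lipid droplet enzyme, at 739 against 267 CPM. The other periportal markers were not higher in these 5 nuclei: Ass1 was at 468 against 975 CPM, Cyp2f2 at 24.6 against 176, Hal at 24.6 against 82.7, Sds at 98.5 against 186 and Gls2 at 98.5 against 98.8. Cluster 22 was not led by periportal genes, so these nuclei are not placed near the portal tract. In the 3 nuclei of STZ-HFHC 2 Pck1 gave 12 UMIs. The lists had a part in forming the clusters, so these are descriptions of few nuclei in 1 library each.

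In the macrophage-like class there were 0 dividing nuclei among 236 in ND (upper limit 1.27% by 3 counts of the total), 13 among 1301 in STZ-HFHC 1 (0.999%, interval 0.533% to 1.70%) and 7 among 889 in STZ-HFHC 2 (0.787%, interval 0.317% to 1.62%). The ND limit lies above both values, so the ND share cannot be set below them at this number of nuclei. Mertk, a receptor for the uptake of dying cells, was found in 20 of the 20 and gave 101 UMIs. Cd5l, a secreted protein of resident macrophages, gave 46 UMIs in 12 of the 13 nuclei of STZ-HFHC 1 (1069 against 910 CPM in the other nuclei of the class) and 8 UMIs in 3 of the 7 of STZ-HFHC 2 (248 against 333). Adgre1, which encodes F4/80, gave 24 UMIs in 10 nuclei of STZ-HFHC 1 (558 against 418 CPM) and only 2 UMIs in 1 nucleus of STZ-HFHC 2 (61.9 against 282). At least 2 endothelial markers were found in 6 of 13 and 3 of 7 dividing macrophage-like nuclei of the STZ-HFHC mice, against 51.3% and 54.0% of the other nuclei.

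Markers of resident Kupffer cells and of lipid-associated macrophages were both found in the dividing macrophage-like nuclei. The Kupffer list, which holds the lectin gene Clec4f, Vsig4, Timd4 and Cd5l, summed to 1742 CPM in the dividing nuclei of STZ-HFHC 1 (1371 to 2184) and to 1498 in the other macrophage-like nuclei. Cd5l gave 46 of the 75 UMIs of the list in the dividing nuclei of STZ-HFHC 1, and Clec4f was at 139 against 210 CPM. In STZ-HFHC 2 the list summed to 341 (170 to 610) against 814, with Clec4f at 0 UMIs in the dividing nuclei. The list sums of the 2 mice thus differed in direction. Vsig4, a complement receptor, gave 13 UMIs in 4 nuclei of STZ-HFHC 1 and 2 UMIs in 1 nucleus of STZ-HFHC 2. The lipid-associated list summed to 1882 (1494 to 2339) against 2692 in STZ-HFHC 1 and to 1766 (1337 to 2287) against 1228 in STZ-HFHC 2, again in opposite directions. Gpnmb, a glycoprotein of lipid-loaded macrophages, gave 30 UMIs in 7 of 13 dividing nuclei of STZ-HFHC 1 and 14 UMIs in 3 of 7 of STZ-HFHC 2. Trem2, a lipid receptor, gave 2 UMIs and 1 UMI, and Spp1 and Fabp5 gave 0 in both mice. The interval of each dividing value leaves out the value of the other nuclei in both mice for the lipid-associated list, but for the Kupffer list in STZ-HFHC 2 alone. These intervals cover counting error only and not the spread between nuclei, so they do not test a difference. In STZ-HFHC 2, for example, Cd36 gave 14 of the 57 UMIs of the lipid-associated list in 2 of the 7 nuclei.

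At the Leiden resolution of 1 used here cluster 10 held the most dividing nuclei: 1 of 34 in ND (2.94%), 17 of 725 in STZ-HFHC 1 (2.34%, interval 1.37% to 3.73%) and 12 of 870 in STZ-HFHC 2 (1.38%, interval 0.715% to 2.40%). At resolution 0.5 the STZ-HFHC mice had 0 dividing nuclei in a class of both markers, 45 endothelial-like and 35 macrophage-like. At resolution 2 they had 20 in a class of both markers and 1 endothelial-like. Stab2, the hyaluronan scavenger receptor of sinusoidal endothelium, gave 273 UMIs in 29 of the 30 dividing nuclei, and Mertk gave 195 UMIs in 30 of the 30. At least 2 endothelial and at least 2 macrophage markers were found together in 25 of the 30 dividing nuclei (83.3%) and in 83.8% of the other nuclei of the cluster. In the macrophage-like class 9 of 20 dividing nuclei held both, and in the endothelial-like class 5 of 16. Nuclei of cluster 10 were deeper than those of either class, with a median of 4311 and 3741 UMIs in the STZ-HFHC mice against 1822 and 1916 in macrophage-like and 1752 and 1905 in endothelial-like nuclei. After thinning to 2000 UMIs its shares were 0.966% and 0.424%, against 1.05% and 1.17% in the macrophage-like class and 1.70% and 0.418% in the endothelial-like class. At equal depth cluster 10 did not have the highest share. Of its 30 dividing nuclei, 6 were among the nuclei with the highest doublet scores, all 6 in STZ-HFHC mice. Whether these barcodes hold 1 nucleus, 2 nuclei or free RNA of a second cell was not tested.

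The monocyte/dendritic-like class (cluster 16) had 3 dividing nuclei of 40 in ND (7.50%, interval 1.57% to 20.4%). There were 6 of 681 in STZ-HFHC 1 (0.881%, interval 0.324% to 1.91%) and 10 of 508 in STZ-HFHC 2 (1.97%, interval 0.948% to 3.59%). The dendritic list was higher in its dividing nuclei than in its other nuclei in both STZ-HFHC mice. The dendritic list summed to 3991 CPM (3073 to 5096) in the dividing nuclei of STZ-HFHC 1 and to 999 in the other nuclei of the cluster. In STZ-HFHC 2 the values were 3112 (2471 to 3867) and 968. The monocyte list was at 187 against 1061 in STZ-HFHC 1 and at 1152 against 670 in STZ-HFHC 2, where 1 nucleus held all 15 UMIs of F13a1, a coagulation factor gene of monocytes, out of 30 UMIs of the list. At least 2 monocyte markers were found in 10.0% of the dividing nuclei of STZ-HFHC 2, against 14.3% of the others. The macrophage list was at 2120 (1468 to 2962) against 1184 in STZ-HFHC 1, with Mertk at 998 against 356 CPM and Cd5l at 561 against 140, and at 576 (323 to 950) against 904 in STZ-HFHC 2. At least 2 dendritic markers were found in 6 of 6 and 6 of 10 dividing nuclei, against 27.0% and 30.5% of the others. Wdfy4, needed for cross-presentation by dendritic cells, gave 29 and 48 UMIs in the dividing nuclei of the STZ-HFHC mice. Zbtb46, a transcription factor of classical dendritic cells, gave 10 and 12 UMIs, and Ciita, the regulator of MHC class II genes, gave 9 and 14. Clec9a, a receptor of cross-presenting dendritic cells, was at 499 against 61.5 CPM in STZ-HFHC 1 but at 38.4 against 61.7 in STZ-HFHC 2. Xcr1 was at 0 in the dividing nuclei of both mice, and Cd209a gave 1 UMI in STZ-HFHC 1 and 0 in STZ-HFHC 2. In the 3 ND nuclei the dendritic list was at 1017 (439 to 2003) against 1949, below the level of the other nuclei.

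Endothelial-like nuclei were dividing in 3 of 1192 (0.252%, interval 0.0519% to 0.734%) in ND, in 8 of 867 in STZ-HFHC 1 (0.923%, interval 0.399% to 1.81%) and in 5 of 1031 in STZ-HFHC 2 (0.485%, interval 0.158% to 1.13%). The 3 intervals overlapped. Stab2 gave 122 UMIs in 16 of the 16, and Plekhg1, a guanine nucleotide exchange factor gene of endothelium, gave 81 UMIs in 15. Ptprb, the endothelial receptor phosphatase VE-PTP, gave 72 UMIs in 12. In ND the endothelial list summed to 5043 CPM (3960 to 6331) in the 3 dividing nuclei and to 2227 in the others. It summed to 5674 CPM in dividing nuclei of STZ-HFHC 1 and 5517 in the others, and to 4080 and 3598 in STZ-HFHC 2.

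Stellate/fibroblast-like nuclei were dividing in 2 of 1196 in ND (0.167%, interval 0.0203% to 0.603%), 1 of 682 in STZ-HFHC 1 (0.147%, interval 0.00371% to 0.814%) and 11 of 1387 in STZ-HFHC 2 (0.793%, interval 0.397% to 1.41%). The STZ-HFHC mean of 0.470% ± 0.457 (SD, n = 2) therefore rests on 1 mouse. All 14 nuclei held Reln, the extracellular protein reelin made by stellate cells. In the 11 nuclei of STZ-HFHC 2 Reln was at 1081 CPM against 2295 in the other nuclei of the class, and Ntm, a cell adhesion gene named after its values were seen, was at 341 against 2169. The whole stellate/fibroblast list was at 3229 CPM (2822 to 3677) against 6248, with Dcn, the proteoglycan decorin, at 597 against 1117. Of its 10 markers, 8 were lower in the dividing nuclei and the collagen genes Col3a1 and Col1a2, which are induced in activated stellate cells and fibroblasts, were higher. Col3a1 was at 626 against 182 and found in 7 of the 11 nuclei, and Col1a2 was at 384 against 76.9 and found in 4. The single dividing nucleus of STZ-HFHC 1 held 55 UMIs of Col3a1 and 61 of Col1a2 with 4 of Reln and 0 of Ntm. In the 2 ND nuclei Reln was at 1384 against 825 CPM and Ntm at 1252 against 726, and both collagen genes were at 0. Acta2, the smooth muscle actin of myofibroblasts and muscle cells, also named after its values were seen, gave 20 UMIs in 2 of the 11 nuclei. Of the same smooth muscle list Myh11 (85.3 against 33.5 CPM), Notch3 (114 against 32.1) and Tagln (42.7 against 10.3) were also higher in these 11 nuclei. Rgs5, a regulator of G protein signalling, was lower at 99.6 against 327 CPM. Des, which encodes desmin, was at 14.2 against 26.3 and Cnn1 was at 0. The whole smooth muscle list summed to 640 CPM (467 to 856) against 436. At least 2 of its markers were found in 36.4% of the 11 nuclei, against 13.2% of the others. Such detection depends on depth, and the 11 nuclei were deeper, with a median of 4304 UMIs against 2282. Doublet scores were in the highest class for 3 of the 11 nuclei of STZ-HFHC 2.

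T/NK-like nuclei were dividing in 1 of 116 in ND (0.862%), 1 of 341 in STZ-HFHC 1 (0.293%, interval 0.00742% to 1.62%) and 9 of 371 in STZ-HFHC 2 (2.43%, interval 1.12% to 4.55%). Of the 10 nuclei in the STZ-HFHC mice, 9 came from 1 mouse. Themis, a regulator of T cell receptor signalling, gave 19 UMIs in 7 of the 11 nuclei, and Bcl11b, a transcription factor of the T lineage, gave 11 UMIs in 4. Cd247, the zeta chain of the T cell receptor complex, gave 6 UMIs in 4 nuclei. Over all 123 dividing nuclei Themis gave 86 UMIs, so most of them lay outside this class. The T cell list was at 909 CPM (609 to 1306) in the 9 nuclei of STZ-HFHC 2, against 812 in the other T/NK-like nuclei. For the 1 nucleus of STZ-HFHC 1 it was at 4989 against 1118, and the ND nucleus held 1 UMI of this list. In dividing hepatocyte-like nuclei the list was at 205 CPM. Transcripts of Cd3e, Cd3d, Cd3g and Trac, which define T cells, were at 0 in all dividing nuclei, and in the other T/NK-like nuclei Cd3e was at 25.4 and 11.5 CPM in the STZ-HFHC mice. Klrk1, an activating receptor of NK and T cells, gave 5 UMIs in 4 nuclei. These nuclei were shallow, with a median of 1804 UMIs, and 6 of the 10 in the STZ-HFHC mice had under 2000 UMIs and so dropped out of the thinning to 2000, where none of the other 4 met the rule. After thinning to 1000 UMIs, 3 of 302 T/NK-like nuclei of STZ-HFHC 2 (0.993%) and 0 of 254 of STZ-HFHC 1 met it.

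The 5 remaining dividing nuclei were spread over 4 classes. The 2 mesothelial-like nuclei, 1 in ND with 15 UMIs of the rule genes and 1 in STZ-HFHC 1 with 27, held 15 UMIs of Gpm6a, a membrane glycoprotein gene, and 8 UMIs of Muc16, the surface mucin of serosal linings. They also held more UMIs of the stellate/fibroblast list (76, 5474 CPM against 897 in the other mesothelial-like nuclei) than of the mesothelial list (43, 3097 CPM against 3330). These values pool all libraries. The B cell-like nucleus held 27 UMIs of Ebf1 and 6 of Pax5, both transcription factors of the B lineage. The cholangiocyte-like nucleus held 9 UMIs of Pkhd1, the fibrocystin gene of the biliary cilium, and 13 UMIs of the rule genes. The plasmacytoid dendritic-like nucleus held 2 UMIs of Bst2 and 1 of Ccr9, and so rests on few transcripts.

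Of the other lists, the progenitor list gave 53 UMIs in the dividing nuclei, 44 of them of Kit, a receptor of progenitor and mast cells. The class values of these lists pool all libraries and so mix the conditions. Of the endothelial-like nuclei, 3 of 16 dividing but 1189 of 3074 other nuclei came from ND. The pooled progenitor list was at 250 CPM (151 to 391) in dividing endothelial-like nuclei against 58.9 in the other nuclei of that class. In dividing T/NK-like nuclei it was at 107 (29.1 to 273) against 13.4, on 4 UMIs. The macrophage-like values were 53.1 (14.5 to 136) against 9.91, also on 4 UMIs, and those of cluster 10 were 77.6 against 83.9. Of 6 neutrophil markers, S100a9, Ly6g and Retnlg were at 0, and 18 of the 21 UMIs were of Csf3r, the receptor for the granulocyte growth factor. In dividing nuclei of cluster 10 the neutrophil list was at 88.7 CPM (50.7 to 144) against 47.2 in the others. The megakaryocyte list gave 2 UMIs. The plasma cell list gave 26 UMIs, 24 of them of Sdc1, which hepatocytes also express, with Jchain and Tnfrsf17 at 0.

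When each nucleus was named from its own transcripts alone, without clusters, 61 of the 93 dividing nuclei outside cluster 10 took the class of their cluster, 11 took none and 21 took another. The hepatocyte-like nuclei were the ones most often left without a class, 6 of 8. A nucleus with no other class was called hepatocyte when its share of hepatocyte list UMIs reached the mean of its library. These 6 therefore lay below that mean, which goes against their class name. Of the 14 stellate/fibroblast-like nuclei 9 kept their class, of the 20 macrophage-like nuclei 14 and of the 19 monocyte/dendritic-like nuclei 13. Among the 16 endothelial-like nuclei 12 kept their class, and among the 11 T/NK-like nuclei 6.

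UMIs of the mitosis lists outnumbered those of the DNA replication lists in most dividing nuclei. Lists for licensing, DNA synthesis and S-phase repair were summed as replication, and lists for condensin and cohesin, kinetochore, spindle, cytokinesis and mitotic cyclins and kinases as mitosis, none of them holding a rule gene. Mitosis UMIs exceeded replication UMIs in 102 of 123 nuclei, replication UMIs were higher in 18 and both were equal in 3. By library the mitosis lists were higher in 9 of 11, 45 of 52 and 48 of 60 nuclei. Their level was 3372, 4690 and 4624 CPM in the dividing nuclei of ND, STZ-HFHC 1 and STZ-HFHC 2, and 211, 208 and 217 in the other nuclei. The replication level was 1845, 1919 and 1831 in dividing nuclei and 328, 393 and 339 in the others. Most of the 9 rule genes belong to G2 and mitosis, so this balance is not independent of the rule. The lists also hold different numbers of genes of different lengths, and the cytokinesis gene Diaph3 alone gave 305 UMIs. The balance therefore does not place a nucleus in a phase of the cycle.

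Classes differed in this balance. All 8 hepatocyte-like and all 14 stellate/fibroblast-like nuclei held more mitosis than replication UMIs. The hepatocyte-like nuclei had mitosis transcripts at 7076 CPM and replication transcripts at 818 CPM. Among macrophage-like nuclei 13 of 20 held more mitosis UMIs and 6 held more replication UMIs, at 3996 and 2987 CPM. In cluster 10 the values were 23 of 30 and 6 of 30, at 2689 and 1791 CPM, the lowest mitosis level of the 7 larger classes. T/NK-like nuclei held more replication UMIs in 3 of 11 and monocyte/dendritic-like nuclei in 2 of 19. These shares were not tested between classes, since nuclei of 1 mouse share their library.

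**Figure D4:**
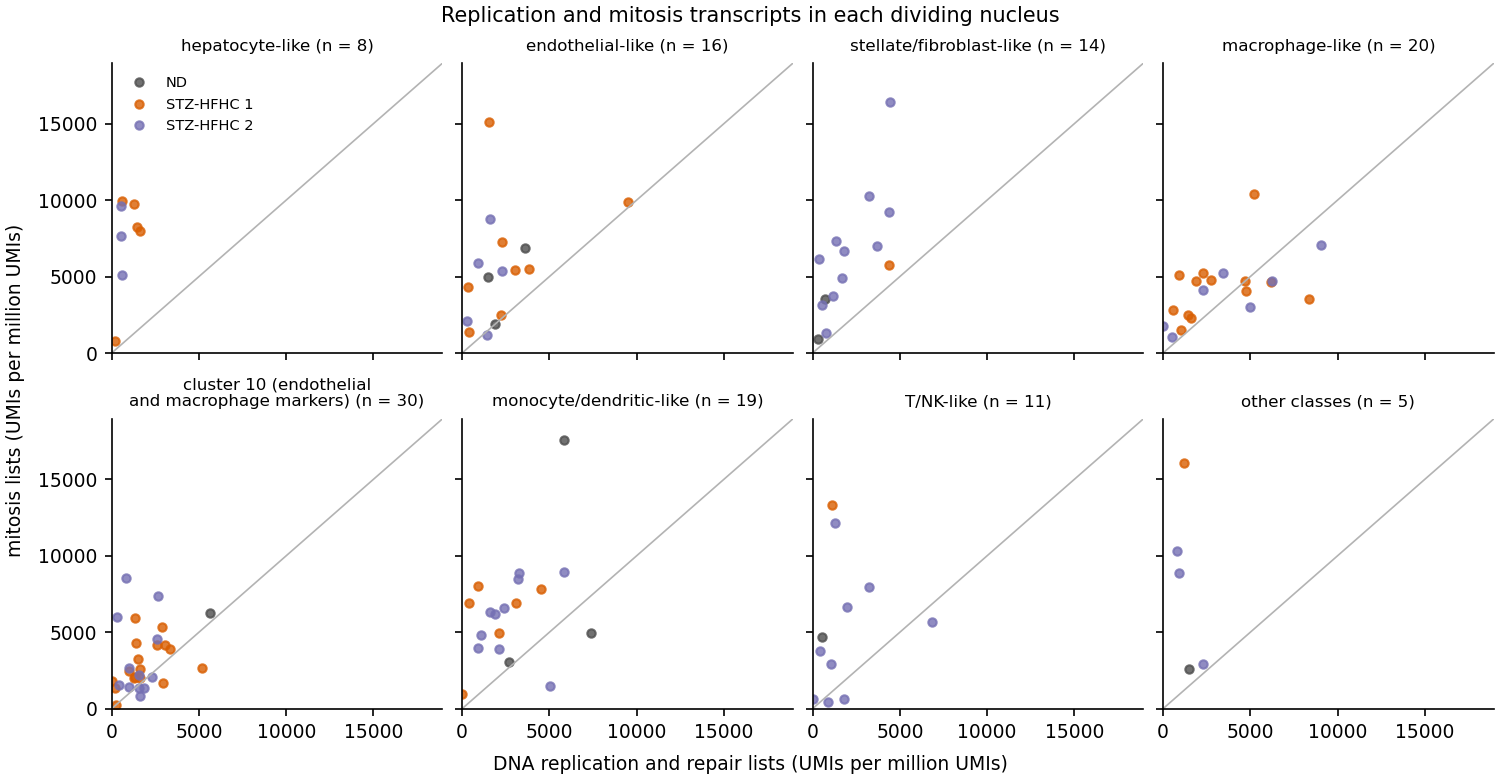
Each point is 1 dividing nucleus, placed by its UMIs of the replication lists (x) and of the mitosis lists (y), both in CPM of that nucleus, coloured by library. The grey line marks equal levels, and all hepatocyte-like and stellate/fibroblast-like nuclei lie above it.

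To follow single genes, the UMIs of each gene in dividing nuclei were set against those expected from the other nuclei of the same clusters and the same library, as a log2 ratio with 0.5 UMIs added to both. The rule used this contrast, so the ratios describe the nuclei and test nothing. Ratios were read in the STZ-HFHC mice, since ND had 11 dividing nuclei. Of 5321 genes with at least 20 UMIs in dividing nuclei, 92 had a log2 ratio of 2 or more in both mice (1.73%) and 0 had a ratio of -2 or less in both (0%). With no minimum of UMIs, 155 genes passed. The 92 were the 9 rule genes, 49 genes of the other cycle lists and 34 genes in no list.

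Genes of the spindle, cytokinesis and kinetochore were highest. All 13 spindle genes, all 9 cytokinesis genes and all 10 kinetochore and checkpoint genes with at least 20 UMIs passed a log2 ratio of 2 in both mice, with medians of 4.09, 3.99 and 3.55 for the smaller of the 2 ratios, against -0.14 over all 5321 genes. Diaph3, a formin that builds actin at the cleavage furrow, gave the most UMIs of all listed genes, with 16, 139 and 150 UMIs in ND, STZ-HFHC 1 and STZ-HFHC 2, found in 8, 38 and 42 dividing nuclei. Its log2 ratio was 4.05, 4.69 and 5.35 in the same order. Anln, which encodes the furrow scaffold anillin, was at 0 UMIs in ND and had ratios of 4.6 and 3.99 in the STZ-HFHC mice. Prc1, the bundler of the central spindle, had ratios of 5.15 and 5.19. Among kinetochore genes, Knl1, the platform for checkpoint proteins, gave 13, 51 and 73 UMIs in the 3 libraries with ratios of 4.48, 4.82 and 5.41, and Cenpe, the kinetochore motor, had ratios of 5.10 and 4.64 in the STZ-HFHC mice. The spindle kinesins Kif15 and Kif4 had ratios of 4.90 and 4.53 and of 4.15 and 4.96, and Ckap2, a microtubule protein of the spindle, had 5.35 and 4.89.

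Mitotic cyclins and kinases passed in 4 of 5 genes and condensin and cohesin genes in 5 of 8. Ccnf, the F-box protein cyclin F, had log2 ratios of 3.72 and 2.55, and Bora, an activator of the mitotic kinase Plk1, had 3.12 and 3.23. Mastl, the Greatwall kinase that keeps mitotic phosphorylation, had 2.69 and 1.32 and did not pass in both mice. Smc4, the core ATPase of condensin, gave 44 and 57 UMIs with ratios of 1.91 and 2.40, while Ncapd2, a subunit of condensin I, had 3.65 and 3.72. Ncapd3, of condensin II, had 1.84 and 1.45.

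Among replication genes, S-phase repair and chromatin genes passed in 7 of 12, DNA synthesis genes in 0 of 5, and no licensing gene reached 20 UMIs. Atad2, a chromatin ATPase of S phase, gave 13, 49 and 61 UMIs in the 3 libraries with ratios of 3.36, 2.09 and 2.49. Brip1, a helicase of DNA repair, had 2.84 and 2.94 in the STZ-HFHC mice, and Blm, another repair helicase, had 2.66 and 2.59. Pola1, the catalytic subunit of the polymerase that starts new strands, gave 58 and 69 UMIs with ratios of 1.43 and 1.92, and Prim2, the primase subunit beside it, had 1.53 and 1.72. Pold3, a subunit of polymerase delta, had 0.75 and 0.71. Of the licensing list, which holds the MCM helicase genes, the 14 genes together gave 53 and 43 UMIs in the STZ-HFHC mice, with ratios of 1.96 and 1.32.

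Genes of the earlier cycle and its brakes were near the level of the other nuclei. Ccnd3, a D-type cyclin of G1, gave 76 and 132 UMIs and had log2 ratios of -0.66 and -0.08. Its partner kinase gene Cdk6 had -0.01 and -0.19. Rb1, the retinoblastoma gene that restrains E2F, had -0.01 and 0.62, its relative Rbl2 had 0.07 and 0.04, and Trp53 had 0.56 and 0.90. None of the 3 brake genes and neither of the G1 genes with at least 20 UMIs passed. Of the cycle's transcription factors, E2f2 passed with 2.71 and 2.71, and Mybl1 had 2.00 and 1.70 and did not pass. The centriole genes Cep192, Cep152 and Sass6 had smaller ratios of 1.26, 0.85 and 0.78, so that none of the 3 passed.

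**Figure D5:**
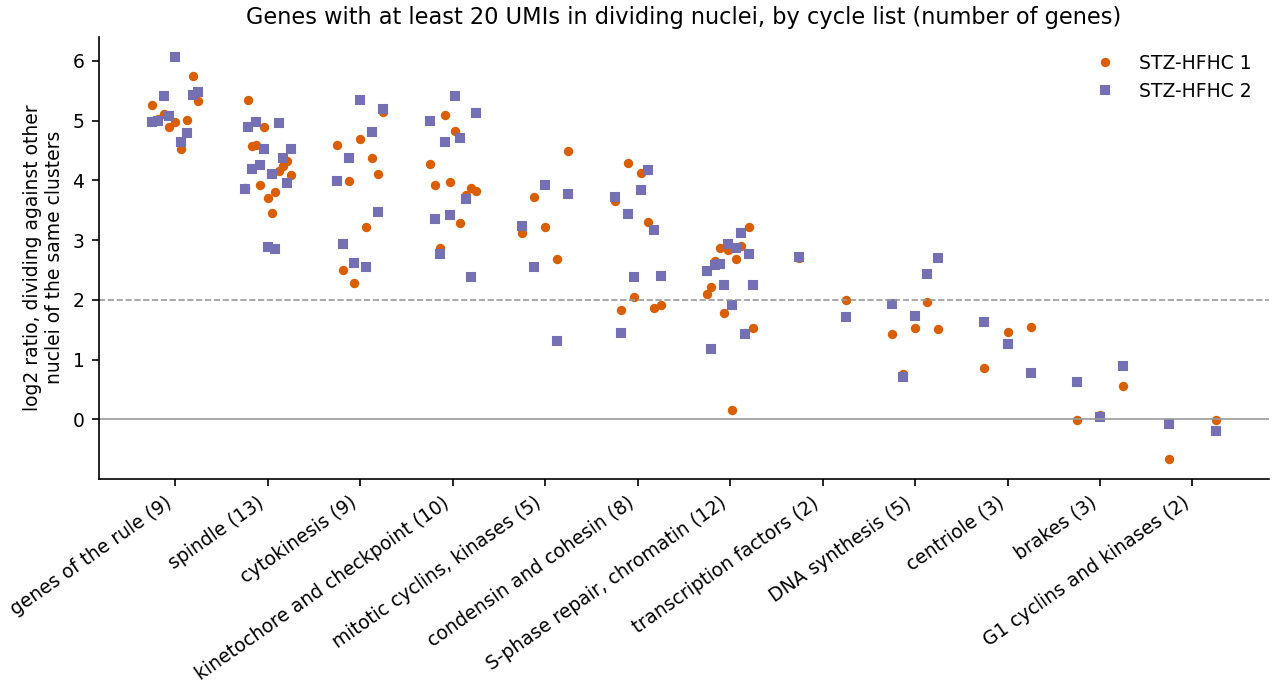
Log2 ratios of dividing against other nuclei of the same clusters, for each listed gene with at least 20 UMIs, in STZ-HFHC 1 (circles) and STZ-HFHC 2 (squares). The dashed line is the log2 ratio of 2, above which all spindle, cytokinesis and kinetochore genes lie in both mice, and G1 cyclins and brakes lie near 0.

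Outside the lists, the 10 genes with the highest smaller ratio among those with at least 50 UMIs are given here. Lockd, a long noncoding RNA gene beside the cyclin-dependent kinase inhibitor Cdkn1b, gave 9, 31 and 55 UMIs in the 3 libraries and had log2 ratios of 4.55 and 5.21 in the STZ-HFHC mice. Efcab11 had ratios of 4.44 and 4.55. Cenpp, a centromere protein gene, gave 93 and 91 UMIs with ratios of 4.05 and 4.05. Cdca2, which targets a phosphatase to chromosomes at the end of mitosis, had 4.91 and 3.83. Lmnb1, the nuclear lamina protein lamin B1, had 3.59 and 4.0. Ezh2, the histone methyltransferase of the Polycomb complex, gave 51 and 87 UMIs with ratios of 2.19 and 3.07. The centrosome protein genes Cep112 and Cep128 had 2.25 and 2.41 and 2.48 and 2.09, and Gas2l3, a cytoskeletal linker of late mitosis, had 2.19 and 2.00, the second of them just under the threshold before rounding. Col1a2 was also among these 10 genes, with 4.16 and 2.24. Of its 62 UMIs in STZ-HFHC 1, 61 came from the single stellate/fibroblast-like nucleus described above, so that value rests on 1 nucleus.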

How the data were processed

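Nuclei were prepared from frozen liver and 3′ libraries were made with 10x Chromium v3.1 chemistry, 1 library per mouse (1 ND, 2 STZ-HFHC). The deposited files hold raw UMI counts per gene and barcode, which the authors made with Cell Ranger 7.0.1 on mm10 (GRCm38), per the labels' processing notes. Of 32285 gene identifiers, 99.6% were matched to GENCODE M21 for coordinates. Nuclei were clustered with Scanpy 1.11.5 (2000 variable genes, 30 components, 15 neighbours, Leiden resolution 1, no correction between libraries). Clusters were named where at least 3 markers and 25% of a list were raised 2-fold and detected in 5% of nuclei, or for hepatocyte-like clusters where 3 hepatocyte or zonation markers were 1.2-fold above clusters already named, a scoring rule chosen after the clusters were seen. Scrublet's automatic threshold marked 3, 1 and 1 nuclei and so had not worked, and nuclei were kept, with the top 8% of scores left out as an alternative. Shares have Clopper-Pearson and levels exact Poisson 95% intervals, for counting error only. The ratio of dividing to other nuclei was tested on simulated data. With 1 ND mouse no test was run. Named genes were the 9 rule genes, the 3 with most UMIs in each list, 10 outside the lists, the 3 leading markers of each class and the zone and macrophage state lists. Results for 2 genes are not reported here. Members and lists were chosen with earlier results of these data known. Alternatives changed the rule, depth, doublets, clustering, added count and libraries.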

Additional observations from a re-analysis of the deposited data

Results flagged for a closer look

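Barcodes outside the limits on genes and mitochondrial UMIs were left out of the values above, and some of them met the rule for dividing nuclei. In STZ-HFHC 1 these were 5 of 1002 barcodes (0.499%, 95% Clopper-Pearson interval 0.162% to 1.16%). In STZ-HFHC 2 they were 2 of 721 (0.277%), and in ND they were 0 of 930, which allows a share of up to 0.323% by 3 counts of the total. All 7 had more than 5000 genes, from 5199 to 7129, and 16865 to 38692 UMIs. The richest, in STZ-HFHC 1, held all 9 rule genes with 121 UMIs, more than any of the 123 nuclei inside the limits, and 198 UMIs of the hepatocyte list against 1 of the endothelial list. Another in STZ-HFHC 1 held 44 UMIs of the rule genes, and 1 more held 340 UMIs of the stellate/fibroblast list. With no upper limit on genes the STZ-HFHC mice had 57 of 9835 and 62 of 11533 dividing nuclei, and the ratio of the STZ-HFHC mean share to ND was 4.76. Whether these barcodes hold 1 nucleus or several was not tested.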

How the results depend on the processing

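Of 83 alternative values, 49 moved by less than the spread between the STZ-HFHC mice, stayed within 1.5 times the reported count or ratio or, for the share in the single ND mouse, stayed within its Clopper-Pearson interval, and 34 moved further. Within that interval the ND share of 0.130% went to 0.0706% with at least 4 rule genes and to 0.0751% after thinning to 2000 UMIs. Without the highest doublet scores the mean log2 ratio of the lipid-associated macrophage list, at 0.0023 ± 0.73 (SD, n = 2), went to -0.19 and so changed sign, within the spread between the mice. The STZ-HFHC mean share of 0.566% became 0.364% with at least 4 rule genes, 0.832% with at least 2, 0.404% at 0.1% of UMIs and 0.537% with 2 of the 5 markers Mki67, Top2a, Cenpf, Kif11 and Tpx2. It became 0.155% after thinning to 1000 UMIs, where ND was at 0.0506%, and 0.372% after thinning to 2000. With the class proportions of the ND mouse, an alternative chosen after seeing the data, it became 0.294%. The ratio of the STZ-HFHC mean to ND lay between 2.27 (ND class proportions) and 5.44 (at least 2 rule genes).

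Class counts in the STZ-HFHC mice depended on the clustering. At Leiden resolution 0.5 there were 45 endothelial-like and 35 macrophage-like dividing nuclei, with 0 in a class of both markers and 0 monocyte/dendritic-like. At resolution 2 there was 1 endothelial-like nucleus. By each nucleus's own markers there were 24 endothelial-like, 4 hepatocyte-like and 6 T/NK-like nuclei. Leaving out 1 STZ-HFHC mouse left 3 to 5 hepatocyte-like, 5 to 8 endothelial-like, 1 to 11 stellate/fibroblast-like, 7 to 13 macrophage-like, 12 to 17 cluster 10, 6 to 10 monocyte/dendritic-like and 1 to 9 T/NK-like nuclei. Without STZ-HFHC 2, the stellate/fibroblast-like and T/NK-like classes were at 1 nucleus each. Past the log2 ratio of 2 there were 79 listed cycle genes and 155 genes in all with no minimum of UMIs, and with 1 mouse 20 to 24 and 51 to 52, since fewer genes then reached 20 UMIs. No paired analysis was possible, because each library came from a different mouse, the labels give no pairs and the result comes from no test.

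With 1 ND mouse and 11 ND dividing nuclei, shares within ND classes rest on 0 to 3 nuclei. The number of nuclei limits the rare classes, and depth limits the rule, which needs 3 transcripts in nuclei with a median of 3011 to 4069 UMIs.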
